A study of Mus musculus with 13 samples.

Results

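The expression of 10 genes of the transforming growth factor-β (TGF-β) system was followed through the lungs of control mice, WT mice given bleomycin and CB1R KO mice given bleomycin. They were the ligands Tgfb1, Tgfb2 and Tgfb3, the receptors Tgfbr1, Tgfbr2 and Tgfbr3, and the latent TGF-β binding proteins Ltbp1, Ltbp2, Ltbp3 and Ltbp4. These 10 genes were taken by symbol out of the 20270 genes of the deposited count and TPM tables. The list was chosen with earlier results of these data known. All 10 genes passed the filter on low counts that left 15315 genes for testing. Each gene's lowest estimated count in any library lay between 479.5 for Tgfb2 and 6809 for Tgfbr2, so none of the 10 was near the detection limit.

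The study asked how the lung transcriptome of fibrotic mice differs when the cannabinoid receptor 1 (CB1R, encoded by Cnr1) is missing. The Control group held 4 WT mice that received the saline vehicle, the WT bleomycin group 5 WT mice and the CB1R KO bleomycin group 4 Cnr1-/- mice. Per the study's methods, WT mice were 13-week-old male C57BL/6J mice, the knockout was carried on the C57Bl/6J background, and bleomycin, a DNA-damaging drug that scars the lung, was given once by oropharyngeal aspiration at 1 U/kg. Lungs were taken 14 days after bleomycin and RNA came from the lower right lobe, and each library was taken as 1 mouse. The WT bleomycin labels 4 and 4-B2 share a number, and the labels do not say whether they are different mice. There was no saline-treated CB1R KO group, so an effect of the genotype on uninjured lung and an effect on the response to bleomycin cannot be told apart. The age of the knockout mice is not given in the sources used here.

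TGF-β is made as an inactive precursor in which the cut propeptide stays wrapped around the mature cytokine. This latent form is usually tethered to the extracellular matrix by a latent TGF-β binding protein, and integrins, proteases or thrombospondin release it. Free ligand brings together the type II receptor TGFBR2 and the type I receptor TGFBR1, which phosphorylates SMAD2 and SMAD3, while the type III receptor betaglycan (Tgfbr3) captures ligand and hands it over. In injured lung this pathway is best known for driving myofibroblasts to deposit collagen.

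Total estimated counts were between 14615904 and 16662580 in 12 libraries and reached 53463884 in CB1R KO mouse 11, 3.33 times the median of the others. Of 16 lists of cell markers used as a check, 15 had every gene in the tables and the list of T and NK cells had 4 of 5, without Trac, and no marker in the tables was at 0 in every library of a group. Markers of tissue outside the airspaces also varied: the summed CPM (estimated counts scaled to an equal library total) of 5 cardiac muscle genes were 621 to 1549 in Control, 100.1 to 420.1 in WT bleomycin and 424 to 749 in CB1R KO bleomycin libraries. CPM of single genes, given below, also carry the normalization used in the test, which these sums do not. In whole-lobe RNA, fewer cells of a type and less RNA per cell cannot be told apart.

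Levels of different genes were compared in TPM, a unit that corrects for how long each transcript is and for library size. In Control lungs Ltbp4 had the highest TPM of the 10 genes, at 302 ± 16.1 (mean ± SD, n = 4). Tgfbr2 followed at 136 ± 5.90 TPM, then Tgfb1 at 70.5 ± 11.5 TPM and Ltbp3 at 60.3 ± 5.34 TPM, and these 2 genes overlapped between libraries. Tgfb3 at 16.3 ± 2.73 TPM and Tgfb2 at 12.5 ± 2.67 TPM were at the bottom of the order and also overlapped. In WT bleomycin lungs the order changed: Tgfbr2 led at 203 ± 9.66 TPM, ahead of Ltbp2 at 162 ± 15.3 TPM and Ltbp4 at 136 ± 12.9 TPM (n = 5), with the ranges of Ltbp2 and Ltbp4 overlapping. Tgfbr3, which was above Ltbp1 and Tgfbr1 in Control, was last by its mean at 16.7 ± 3.41 TPM, with a range that overlapped that of Tgfb2. In CB1R KO bleomycin lungs Tgfbr2 again led at 203 ± 20.2 TPM and Tgfbr3 was last by its mean at 18.8 ± 3.35 TPM (n = 4). The ranges of each neighbouring pair from Tgfbr2 through Ltbp4, Ltbp2 and Ltbp3 to Tgfb1 overlapped, as did those of Tgfb2 and Tgfbr3.

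**Figure D1:**
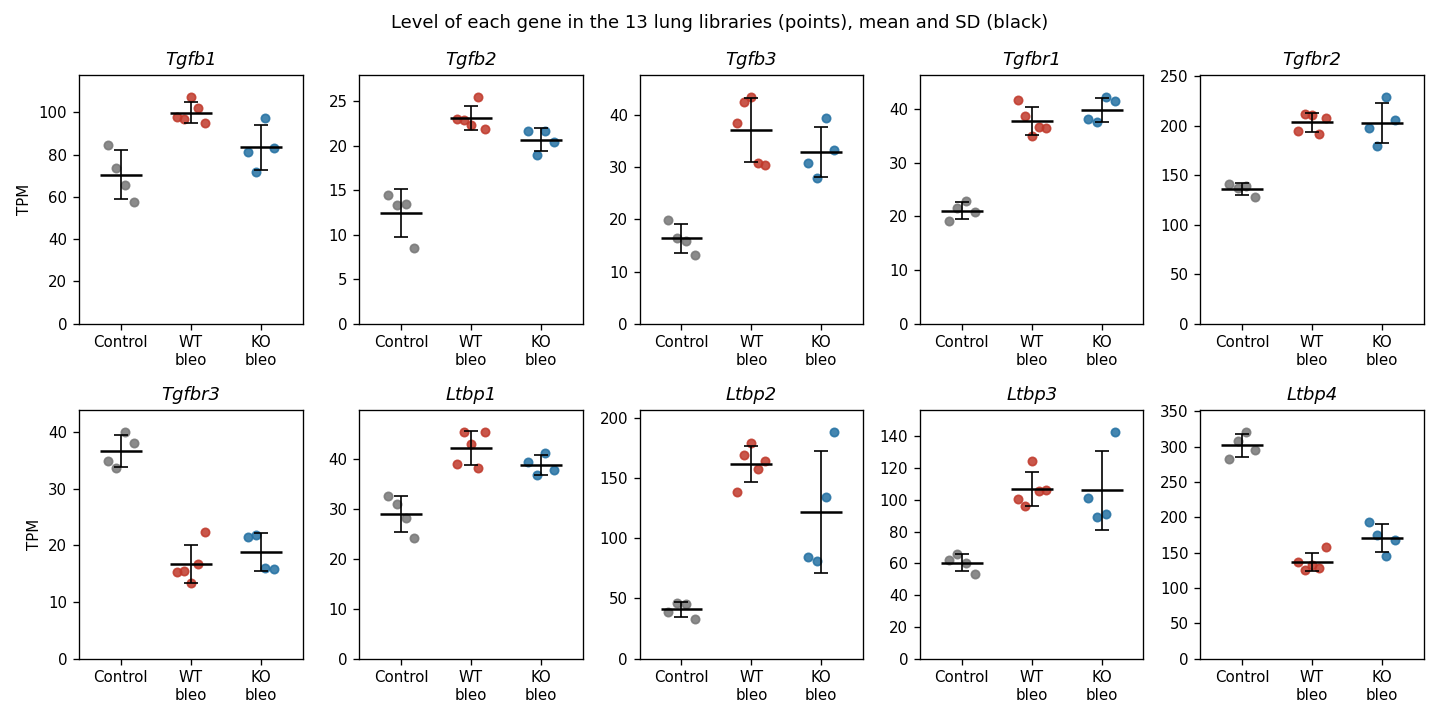
TPM of each of the 10 genes in the 13 libraries (vertical axis, starting at 0) by group (horizontal axis), with 1 point per mouse and the mean and SD in black. Of the 10 genes, 8 stood higher in both bleomycin groups than in Control by their means, whereas Tgfbr3 and Ltbp4 stood lower. For Ltbp2 the CB1R KO points spread from 80.9 to 188 TPM.

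Between WT bleomycin and Control, all 10 genes differed past the threshold of an adjusted p of 0.05 (edgeR quasi-likelihood test on the counts, Benjamini-Hochberg adjustment over the 15315 genes). Of the 10 genes, 8 rose, where 25.0% of all tested genes rose, and 2 fell, where 23.9% of all tested genes fell. For each of the 10 genes the 5 WT bleomycin libraries and the 4 Control libraries did not overlap in CPM, which held for 40.3% of all tested genes. The median log2 fold change of the 10 genes was 0.64, against -0.01 over all tested genes. The log2 fold changes ran from -1.18 for Ltbp4 to 2.04 for Ltbp2.

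All 3 ligand genes rose with bleomycin in WT mice. Tgfb1 encodes the isoform most closely tied to fibrosis. Its TPM values were 84.8, 73.7, 65.8 and 57.8 in Control and 98.1, 97.0, 107, 102 and 94.9 in WT bleomycin libraries. Every WT bleomycin library lay above the highest Control library, and on the CPM scale of the test the log2 fold change was 0.47 (SE 0.10, edgeR adjusted p = 0.00127).

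Tgfb2, a ligand that leans on betaglycan to reach the type II receptor, stood at 14.5, 13.4, 13.4 and 8.52 TPM in Control and at 23.0, 22.9, 22.4, 25.4 and 21.9 TPM in WT bleomycin. Control mouse 26 was the lowest, and the 5 WT bleomycin libraries were close to each other. The log2 fold change was 0.84 (SE 0.11, edgeR adjusted p = 1.86e-05). Tgfb3, the third isoform, stood at 19.8, 16.5, 15.8 and 13.2 TPM in Control and at 38.5, 42.4, 43.3, 30.8 and 30.5 TPM in WT bleomycin. It had the largest rise of the ligands, a log2 fold change of 1.15 (SE 0.13, edgeR adjusted p = 7.47e-06). Its 5 WT bleomycin values formed a higher 3 and a lower 2, all above Control.

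Since the ligands rose unequally, their make-up shifted. Tgfb1 made up 71.1 ± 1.42% of the summed ligand TPM in Control (n = 4), 62.4 ± 2.04% in WT bleomycin (n = 5) and 60.9 ± 0.411% in CB1R KO bleomycin (n = 4). Tgfb3 went the other way, with 16.5 ± 0.358%, 23.1 ± 2.89% and 23.9 ± 0.819%. These shares are a description without a test, and every bleomycin library of both genotypes had a smaller Tgfb1 share than every Control library. The summed ligand TPM was 99.3 ± 16.5 in Control, 160.1 ± 9.16 in WT bleomycin and 137 ± 16.4 in CB1R KO bleomycin lungs.

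The 250 bases upstream of the Tgfb1 and Tgfb2 starts are shown because these ligand genes both rose but have unlike promoters. They were taken from RefSeq on build GRCm38.p6 and are printed 5′ to 3′ on the strand of the gene, and the capitals mark matches on either strand to 5 motifs: AP-1 (TGANTCA), the GC box (GGGCGG), the Smad box (CAGACA), CRE (TGACGTCA) and the TATA box (TATAAA). An entry in the promoter table was found for 8 of the 10 genes, all but Tgfb3 and Tgfbr3.
Tgfb1 promoter, chr7:25686752-25687001, plus strand: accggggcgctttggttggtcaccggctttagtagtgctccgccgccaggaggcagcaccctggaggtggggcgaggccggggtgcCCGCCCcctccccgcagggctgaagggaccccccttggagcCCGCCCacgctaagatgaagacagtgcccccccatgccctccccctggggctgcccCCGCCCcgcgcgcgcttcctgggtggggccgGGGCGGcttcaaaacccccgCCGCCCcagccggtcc
Tgfb2 promoter, chr1:186705990-186706239, minus strand: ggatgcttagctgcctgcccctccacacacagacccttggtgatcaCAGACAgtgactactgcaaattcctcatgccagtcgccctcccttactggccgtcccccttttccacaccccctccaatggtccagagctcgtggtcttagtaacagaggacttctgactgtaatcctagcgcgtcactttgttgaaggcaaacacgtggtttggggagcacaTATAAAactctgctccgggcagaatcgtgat
The Tgfb1 window was 75.2% G and C and held 5 matches to the GC box, a motif found in 32.7% of the 32851 mouse promoter windows of this length. The Tgfb2 window was 53.6% G and C and held a TATA box, found in 12.4% of windows, and a Smad box, found in 17.1%. In GENCODE, 167 bases of the Tgfb2 window lie in an exon of the antisense gene Gm29491. A match is a description of letters, not of binding.

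The receptor genes split. Tgfbr1 encodes the type I receptor kinase, and it stood at 19.1, 21.5, 22.9 and 20.7 TPM in Control and at 41.6, 38.7, 35.0, 36.7 and 36.5 TPM in WT bleomycin. Each WT bleomycin library was well above the Control range. The log2 fold change was 0.79 (SE 0.07, edgeR adjusted p = 5.58e-07).

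Tgfbr2, the ligand-binding type II receptor, stood at 141, 137, 139 and 128 TPM in Control and at 194, 212, 211, 191 and 208 TPM in WT bleomycin, again without overlap. It rose by a log2 fold change of 0.53 (SE 0.07, edgeR adjusted p = 2.04e-05), so that 6.08 to 7.38 Tgfbr2 transcripts per Tgfbr1 transcript in Control became 4.67 to 6.03 in WT bleomycin. Tgfbr3, the co-receptor betaglycan, moved in the opposite direction. It stood at 35.0, 33.7, 40.0 and 38.1 TPM in Control and at 15.4, 15.5, 13.4, 16.8 and 22.4 TPM in WT bleomycin, with mouse 7 the highest of the injured lungs yet below every Control library. Its log2 fold change was -1.17 (SE 0.14, edgeR adjusted p = 1.52e-05).

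In TPM, Tgfbr3 was above Tgfbr1 in all 4 Control libraries, with ratios of 1.57 to 1.84, and below it in all 9 bleomycin libraries, with ratios of 0.369 to 0.615 in WT and 0.381 to 0.582 in CB1R KO mice. Its share of the summed receptor TPM was 18.9 ± 1.38% in Control (n = 4), 6.47 ± 1.23% in WT bleomycin (n = 5) and 7.28 ± 1.74% in CB1R KO bleomycin (n = 4). Endothelial markers moved with it: all 5 markers of endothelial cells fell in WT bleomycin, and their summed CPM ranged over 3667 to 4239 in Control, 2427 to 2783 in WT bleomycin and 2740.1 to 3098 in CB1R KO bleomycin. Capillary markers did the same, with 4 of 4 falling and summed CPM of 849.8 to 993 in Control, 544 to 629 in WT bleomycin and 580.1 to 642 in CB1R KO bleomycin. Markers of other cells fell in WT bleomycin too, 3 of 3 for club cells and 4 of 5 for type II cells. Of all tested genes, 23.9% fell. The summed CPM of the club cell markers was 18663 to 21267 in Control, 8471 to 12999 in WT bleomycin and 8838 to 10043 in CB1R KO bleomycin. The part of any of these cells in the Tgfbr3 result was not tested.

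Of the binding proteins, 3 rose and Ltbp4 fell. Ltbp2 encodes the member that binds fibrillin fibres but, unlike the other family members, does not bind latent TGF-β. It stood at 38.7, 46.0, 45.6 and 33.0 TPM in Control and at 138, 169, 179.6, 158 and 164 TPM in WT bleomycin. The lowest injured lung was well above the highest Control lung, and the log2 fold change of 2.04 (SE 0.17, edgeR adjusted p = 4.5e-07) was the largest among the 10 genes, a 4.1-fold rise.

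Ltbp4, which binds latent TGF-β1 and takes part in elastic fibre assembly in the lung, was the counterpart. It stood at 283, 308, 321 and 295 TPM in Control and at 137, 125, 133, 129 and 158 TPM in WT bleomycin. The groups were far apart, and the log2 fold change was -1.18 (SE 0.09, edgeR adjusted p = 2.58e-07).

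Ltbp1 and Ltbp3, the partners that carry latent TGF-β efficiently, rose by less than Ltbp2. Ltbp1 stood at 32.5, 31.1, 28.2 and 24.2 TPM in Control and at 39.0, 45.3, 42.9, 38.2 and 45.3 TPM in WT bleomycin, a log2 fold change of 0.46 (SE 0.08, edgeR adjusted p = 0.000224). Ltbp3 stood at 62.1, 65.8, 60.2 and 53.1 TPM in Control and at 101, 96.2, 125, 106 and 106 TPM in WT bleomycin, a log2 fold change of 0.75 (SE 0.10, edgeR adjusted p = 1.97e-05). Neither gene overlapped between the groups.

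The summed TPM of the 4 binding proteins hardly moved while its make-up turned over. It was 432 ± 24.5 in Control (n = 4), 447 ± 28.5 in WT bleomycin (n = 5) and 437 ± 68.4 in CB1R KO bleomycin (n = 4). Ltbp4 made up 69.9 ± 2.23% of it in Control, 30.6 ± 2.53% in WT bleomycin and 39.7 ± 7.54% in CB1R KO bleomycin, and Ltbp2 9.41 ± 0.943%, 36.2 ± 2.17% and 27.2 ± 7.69%. Ltbp4 exceeded Ltbp2 by 6.70 to 8.96 times in TPM in Control libraries, and the ratio was 0.740 to 0.989 in WT bleomycin libraries. Of these 2 genes, Ltbp2 was thus the higher in each of the 5 injured WT lungs.

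**Figure D2:**
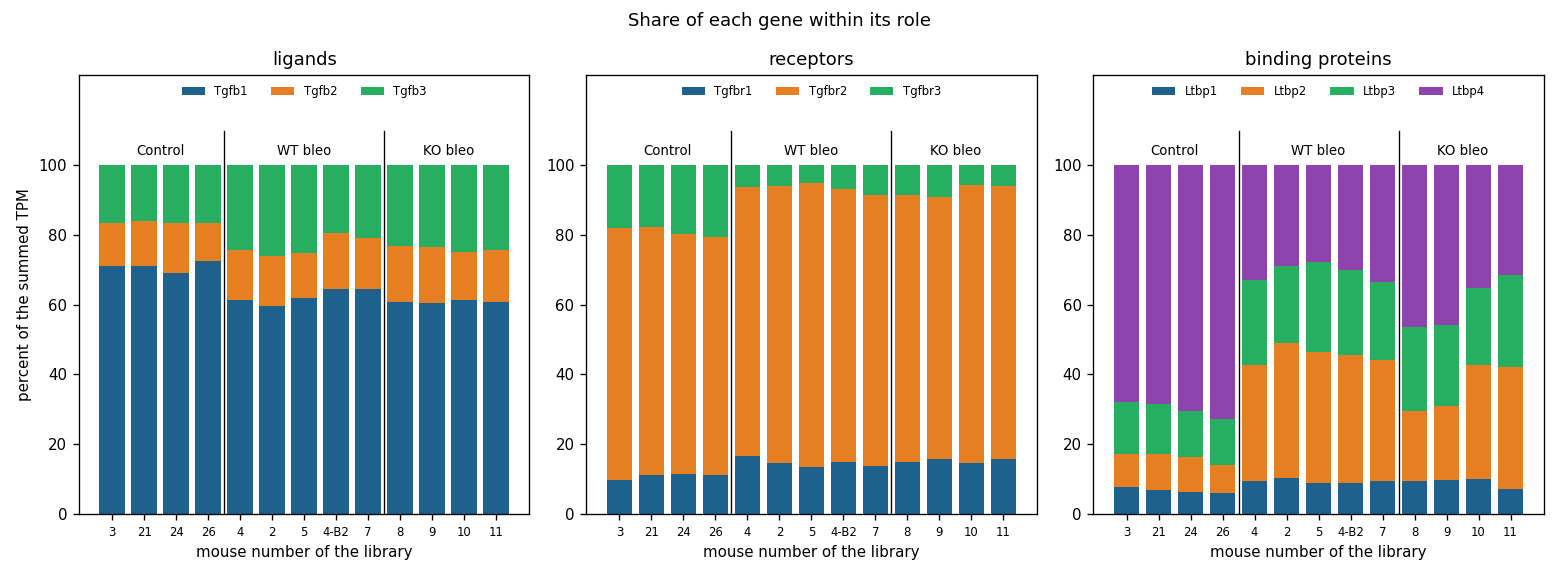
Share of each gene in the summed TPM of its role (vertical axis, percent) for ligands, receptors and binding proteins, with 1 bar per library (horizontal axis, mouse number). The Ltbp4 part shrank from a mean of 69.9% in Control to 30.6% in WT bleomycin, and among CB1R KO bars mice 8 and 9 kept a larger Ltbp4 part than mice 10 and 11.

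Stretches upstream of Ltbp2 and Ltbp4 are shown because these genes of 1 family moved in opposite directions. They come from the same RefSeq table and build, and the capitals mark the same motifs. For Ltbp2, the 41 bases nearest to the start were left out because another Ltbp2 transcript covers them.
Ltbp2 upstream stretch, chr12:84876533-84876741, minus strand: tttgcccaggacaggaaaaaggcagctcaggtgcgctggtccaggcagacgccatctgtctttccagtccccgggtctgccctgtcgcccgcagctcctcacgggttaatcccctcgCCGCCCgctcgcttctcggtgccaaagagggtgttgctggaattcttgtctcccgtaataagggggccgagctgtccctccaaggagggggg
Ltbp4 promoter, chr7:27333664-27333913, minus strand: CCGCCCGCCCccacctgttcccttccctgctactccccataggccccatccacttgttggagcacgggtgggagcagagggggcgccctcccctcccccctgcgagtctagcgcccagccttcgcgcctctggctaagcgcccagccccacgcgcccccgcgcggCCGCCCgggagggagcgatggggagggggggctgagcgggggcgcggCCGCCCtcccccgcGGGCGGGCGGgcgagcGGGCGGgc
The Ltbp2 stretch of 209 bases was 63.2% G and C and held 1 GC box, and it lies within an exon of the antisense gene D030025P21Rik. The 41 bases left out for Ltbp2 held another GC box match. The Ltbp4 window, 1 of 3 listed for the gene, was 79.2% G and C and held 7 GC box matches, of which some overlap each other. The other Ltbp4 windows were 79.2% and 64.4% G and C and held fewer GC box matches. Neither stretch held a match to AP-1, the Smad box, CRE or the TATA box.

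In CB1R KO bleomycin lungs compared with Control, 9 of the 10 genes passed the threshold. Of these, 7 rose, where 19.0% of all tested genes rose, and 2 fell, where 16.3% of all tested genes fell. The groups did not overlap for 9 of the 10 genes, and for 33.5% of all tested genes. The median log2 fold change of the 10 genes was 0.55, against -0.01 over all tested genes. The Control libraries are shared with the WT comparison, so the values of both comparisons are not independent.

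Tgfb1 was the gene that did not pass. It stood at 81.5, 71.9, 97.4 and 83.2 TPM in CB1R KO bleomycin libraries, where mice 8, 9 and 11 lay inside the Control range of 57.8 to 84.8 TPM. The log2 fold change to Control was 0.17 (SE 0.10, edgeR adjusted p = 0.213, 95% interval -0.05 to 0.39). The other ligands rose, Tgfb2 by 0.63 (SE 0.11) and Tgfb3 by 0.93 (SE 0.14) on the log2 scale, with adjusted p-values of 0.000605 and 0.000133 in the edgeR test.

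Among the receptors, Tgfbr1 rose by 0.81 (SE 0.07), Tgfbr2 rose by 0.47 (SE 0.07) and Tgfbr3 fell by 1.05 (SE 0.15) on the log2 scale against Control. Among the binding proteins, Ltbp2 rose by 1.55 (SE 0.17), Ltbp3 by 0.67 (SE 0.10) and Ltbp1 by 0.31 (SE 0.08), and Ltbp4 fell by 0.91 (SE 0.10). The largest edgeR adjusted p among these 7 genes was 0.00884, for Ltbp1.

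**Figure D3:**
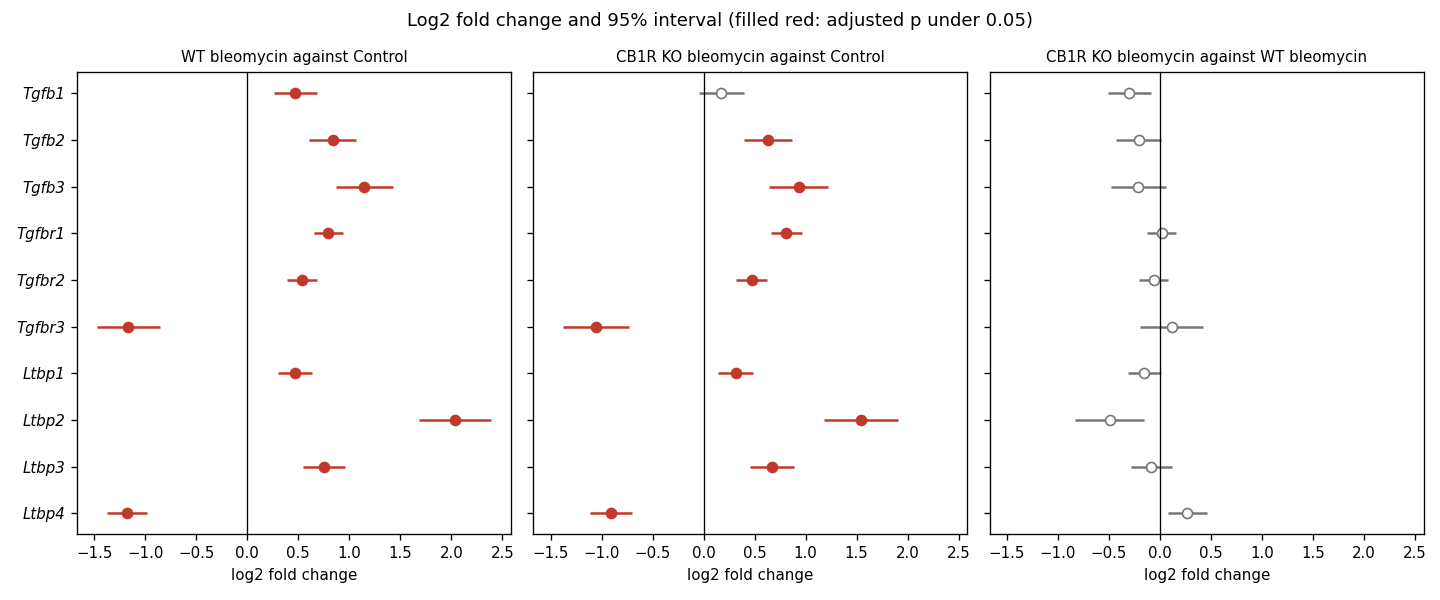
Log2 fold change (horizontal axis) with its 95% interval for each of the 10 genes in the 3 comparisons, filled in red where the edgeR adjusted p was under 0.05. All 10 genes are filled in WT bleomycin against Control, 9 in CB1R KO bleomycin against Control, and 0 in CB1R KO against WT bleomycin.

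Between CB1R KO bleomycin and WT bleomycin, 0 of the 10 genes passed the threshold in the edgeR quasi-likelihood test, where 0.359% of all tested genes were higher and 0.620% lower in the knockout. At an unadjusted p under 0.05 there were 3 of the 10, Tgfb1, Ltbp2 and Ltbp4, and 2608 of the 15315 genes, or 17.0%. DESeq2 called 1 of the 10, Ltbp2, with an adjusted p of 0.0449 when fitted on all 13 libraries, and 1 of the 10, Tgfb1, with an adjusted p of 0.0434 when fitted on these 2 groups alone. Over all genes, DESeq2 called 644 in each of these fits, where edgeR called 150. The groups did not overlap in CPM for 1 of the 10 genes, Tgfb2, and for 5.60% of all tested genes. The mean of 7 of the 10 was lower and that of 3 higher in the knockout, and the median log2 difference was -0.12 against 0.00 over all tested genes.

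The ligand genes were all lower on average in the knockout, though none passed the threshold. For Tgfb1, CPM values were 108, 97.0, 131 and 114 in CB1R KO and 131, 130.3, 149.7, 147 and 133 in WT bleomycin libraries. Knockout mouse 10 reached the lower edge of the WT range, and the other 3 knockout mice lay under it. The log2 difference was -0.30 (SE 0.10, 95% interval -0.51 to -0.09, edgeR adjusted p = 0.148). Without CB1R KO mouse 10, it was -0.38 with an edgeR adjusted p of 0.0444. That fit called 653 of all tested genes, against 150 with every library kept. Without CB1R KO mouse 9, the Tgfb1 difference was -0.24 with an edgeR adjusted p of 0.346.

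For Tgfb2, CPM values were 67.9, 60.1, 67.0 and 63.9 in CB1R KO and 73.5, 71.3, 71.3, 85.5 and 72.0 in WT bleomycin libraries. All knockout libraries were below all WT bleomycin libraries by a narrow gap, and the log2 difference of -0.21 (SE 0.10, 95% interval -0.43 to 0.01) had an edgeR adjusted p of 0.324. In TPM the Tgfb2 ranges, 19.0 to 21.7 and 21.9 to 25.4, did not overlap either. Tgfb3 ranged from 60.8 to 85.2 CPM in CB1R KO and from 69.1 to 97.5 CPM in WT bleomycin libraries, with a log2 difference of -0.21 (95% interval -0.48 to 0.06, edgeR adjusted p = 0.41).

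The receptor genes differed little between the genotypes. Tgfbr1 differed by 0.02 on the log2 scale (95% interval -0.12 to 0.16, edgeR adjusted p = 0.922), with 132, 134, 149 and 149 CPM in CB1R KO and 145, 142, 130.0, 141 and 139.8 CPM in WT bleomycin libraries. The groups were interleaved. Tgfbr2 differed by -0.06 (95% interval -0.21 to 0.08, edgeR adjusted p = 0.685) and Tgfbr3 by 0.11 (95% interval -0.20 to 0.42, edgeR adjusted p = 0.733). For Tgfbr3 the knockout libraries fell into a pair of higher values, 85.0 and 88.1 CPM in mice 8 and 9, and a pair of lower ones, 62.9 and 62.0 CPM in mice 10 and 11.

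The same pairs of mice were apart for Ltbp2. Its CPM values were 362 and 358 in CB1R KO mice 8 and 9 and 581 and 619.8 in mice 10 and 11, against 547, 699, 708, 683 and 739 in WT bleomycin libraries. Mice 8 and 9 lay below every WT bleomycin library, and mice 10 and 11 lay inside the WT range. The log2 difference was -0.49 (SE 0.16, 95% interval -0.83 to -0.15, edgeR adjusted p = 0.142). It was -0.64 without CB1R KO mouse 11 and -0.37 without mouse 9, with edgeR adjusted p-values of 0.0893 and 0.336. The study, which tested with DESeq2, names LTBP2 among genes whose rise in fibrosis was attenuated by CB1R deletion, at a p-value under 0.05. The threshold used here is on the adjusted p of edgeR, so the tests are unlike.

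The scale mattered for Ltbp2 and Ltbp3 in CB1R KO mouse 11. In TPM, mouse 11 had 188 for Ltbp2 and 143 for Ltbp3, above every WT bleomycin library, whereas its CPM values lay inside the WT ranges. The ratio of estimated counts to TPM, which follows the transcript length that the quantification assigned to a gene, was 80.6% of the gene's median over libraries for Ltbp2 and 82.4% for Ltbp3 in this mouse. That ratio was also low, at 81.1%, for Ltbp2 in Control mouse 24. Over 10690 genes, 2.74% were under 85% of their median in CB1R KO mouse 11 and 2.53% in WT bleomycin mouse 5, against 0.814% to 1.31% in the other 11 libraries.

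Ltbp4 was higher on average in the knockout. Its CPM values were 634, 587, 479 and 558 in CB1R KO and 452, 419, 459.9, 459.6 and 551 in WT bleomycin libraries. Of the 4 knockout libraries, 3 lay above the highest WT bleomycin library, mouse 7, and knockout mouse 10 lay inside the WT range. The log2 difference was 0.27 (SE 0.09, 95% interval 0.08 to 0.46, edgeR adjusted p = 0.154). It was 0.21 with an edgeR adjusted p of 0.374 without CB1R KO mouse 8, and 0.34 with 0.042 without CB1R KO mouse 10.

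That mouse also differed from the other knockouts in its cell markers. The summed CPM of 5 markers of type II cells, the surfactant-making cells of the alveolus, was 12261 in CB1R KO mouse 10 and 17048 to 19288 in mice 8, 9 and 11, against 10471 to 11918 in WT bleomycin libraries. Of the 5 type II markers, 3 (Sftpc, Sftpa1 and Lamp3) were called higher in CB1R KO than in WT bleomycin lungs by edgeR. The part of these cells in the results for Tgfb1 and Ltbp4 was not tested. Ltbp1 and Ltbp3 differed by -0.15 (95% interval -0.32 to 0.01) and -0.09 (95% interval -0.29 to 0.12) on the log2 scale, with edgeR adjusted p-values of 0.341 and 0.682.

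The ratio of Ltbp4 to Ltbp2 TPM was 2.31, 2.16, 1.08 and 0.894 in CB1R KO mice 8, 9, 10 and 11, all below the Control range of 6.70 to 8.96. It takes over the spread of Ltbp2, its denominator, and for mouse 11 it rests on the Ltbp2 TPM value whose ratio to counts was low.

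The genes whose log2 CPM followed each of the 10 genes most closely over the 13 libraries were looked up as a description, since group differences drive such likeness and the libraries share the groups. Ltbp2 was followed by the fibrillar collagen genes Col1a2, Col1a1 and Col5a2, with Pearson r of 0.998, 0.995 and 0.994, and r was still 0.971, 0.936 and 0.937 after the group means were removed. Tgfbr3 was followed by Mtus1, Epas1 and Cyp4b1, with r of 0.987, 0.985 and 0.981, where Epas1 encodes the hypoxia-inducible factor HIF-2α. Tgfb3 was followed by Tmem132a, Unc5b and Mthfd2 (r of 0.984, 0.983 and 0.981). After the group means were removed, r also stayed at 0.922 for Tgfbr3 with Mtus1 and at 0.916 for Tgfb3 with Unc5b. The lowest such r among the listed pairs was 0.736, for Ltbp4 with Plscr4. All partners were picked for their likeness over these same libraries.

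Likeness was lower for the other ligands and for Ltbp1. Tgfb1 was followed by Septin9, Prag1 and Pip5k1c (r of 0.953, 0.953 and 0.939), Tgfb2 by Eif4e2, Ccn4 and Tnfrsf9 (r of 0.975, 0.966 and 0.964) and Ltbp1 by Pycr1, St3gal4 and Tram2 (r of 0.961, 0.960 and 0.958). Pycr1 makes proline, an amino acid rich in collagen. Tgfbr1 was followed by Psme4, Il18bp and Ctps, and Tgfbr2 by Cyp7b1, Aif1 and Pla1a, where Aif1 is a macrophage gene. Ltbp3 was followed by Pigs, Ctnnbip1 and Haspin, and Ltbp4 by Calcoco1, Lin52 and Plscr4, with r of at least 0.972 for each of the 4 genes' 3 partners.

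Fibroblast markers did not all move with Ltbp2. Of 5 fibroblast markers, Lum and Col1a2 rose in WT bleomycin against Control, and Pdgfra, Pdgfrb and Dcn had log2 differences of -0.07, 0.20 and 0.06 that did not pass the edgeR test. The summed CPM of the 5 genes was 1130 to 1259 in Control, 2536 to 3539 in WT bleomycin and 1797 to 2794 in CB1R KO bleomycin, and without Col1a2 it was 671 to 833, 730.4 to 901 and 695 to 793. The sums of all 5 genes did not overlap between Control and either bleomycin group. Leaving Col1a2 out, a choice made after its values were seen, the marker sums of the groups overlapped. That smaller sum was mostly Pdgfra, Pdgfrb and Dcn, at 356, 226 and 184 CPM in WT bleomycin. The rise of Lum, from 9.65 CPM in Control to 28.3 in WT bleomycin, hardly shows in it. Ltbp2 was apart between Control and both bleomycin groups, and the part of fibroblasts in its result was not tested. Markers of macrophages rose, 5 of 5 in WT bleomycin against Control, with summed CPM of 371 to 457 and 835 to 1024, and their part in the results of the 10 genes was not tested.

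**Figure D4:**
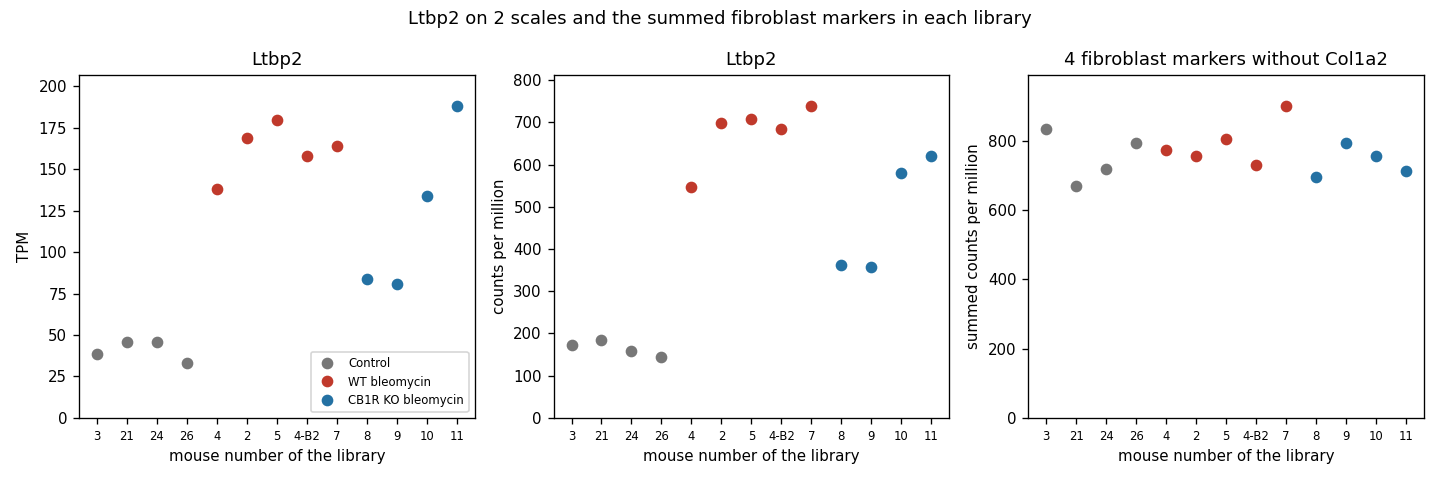
Ltbp2 in TPM (left), Ltbp2 in CPM (middle) and the summed CPM of 4 fibroblast markers without Col1a2 (right) in each library, by mouse number. Col1a2 was left out after its values were seen. The Ltbp2 CPM carry the normalization of the test and the marker sums do not. CB1R KO mouse 11 is the highest of all libraries in TPM and lies within the WT bleomycin range in CPM, and the marker sums lie between 671 and 901 in all 13 libraries.

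Another 5 lists of pathway genes were read in the same fit, against the shares of all tested genes called in each direction that are given above. Genes for proteins that process or release latent TGF-β rose widely in WT bleomycin lungs, with 13 of 15 genes higher, 1 lower and Lrrc32 not passing, and a median log2 fold change of 0.76 against -0.01 over all genes. Mmp14, a membrane-bound matrix metalloproteinase, had the largest rise, from 54.7 ± 11.8 CPM in Control (SD, n = 4) to 306 ± 23.3 in WT bleomycin (n = 5), a log2 fold change of 2.48. Mmp9, a gelatinase abundant in neutrophils, was the 1 that fell, by 1.82 on the log2 scale. Of 4 neutrophil markers, 3 fell as well, and the summed CPM of the 4 was 74.3 to 394 in Control and 48.5 to 92.0 in WT bleomycin. These sums overlapped, and Control was split, with 394 and 334 in mice 3 and 26 and 95.1 and 74.3 in mice 21 and 24.

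Between the genotypes 0 of the 15 genes were called higher and 2 lower. Thbs1, thrombospondin-1, which can free TGF-β from its propeptide, was at 327 ± 82.9 CPM in Control, 1461 ± 124 in WT bleomycin and 867 ± 109.6 in CB1R KO bleomycin, a log2 difference of -0.75 between the bleomycin groups (SE 0.14, edgeR adjusted p = 0.0266). Furin, which cuts the TGF-β precursor, was at 151 ± 2.28, 244 ± 25.8 and 190.4 ± 14.3 CPM, a log2 difference of -0.36 (SE 0.08, edgeR adjusted p = 0.0411). Both genes were without overlap between the bleomycin groups. Against Control, 11 of the 15 genes were higher in the knockout and 1 lower, and Mmp2 had the largest rise at 2.27.

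Of the genes for matrix proteins that share fibres with the binding proteins, 9 of 12 rose in WT bleomycin and 0 fell, with a median log2 fold change of 1.18. Eln, elastin, had the largest rise, from 166 ± 54.4 to 3088 ± 813 CPM, a log2 fold change of 4.22, while Ltbp4 fell. Fbln1, fibulin-1, was at 85.6 ± 7.66 CPM in Control, 85.0 ± 4.60 in WT bleomycin and 114 ± 6.88 in CB1R KO bleomycin, and was the 1 gene of the list called higher in the knockout than in WT bleomycin (log2 difference 0.43, SE 0.07, edgeR adjusted p = 0.0177).

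The 2 genes of that list called lower in the knockout were Fn1 and Efemp2. Fn1, fibronectin, was at 649 ± 47.6 CPM in Control, 5024 ± 696 in WT bleomycin and 2776 ± 999 in CB1R KO bleomycin, a log2 difference of -0.86 (SE 0.18, edgeR adjusted p = 0.0389). Efemp2, the elastic fibre protein fibulin-4, was at 40.9 ± 4.00, 82.2 ± 5.56 and 62.4 ± 6.07 CPM, a log2 difference of -0.40 (SE 0.08, edgeR adjusted p = 0.0371). Against Control, 11 of the 12 matrix genes were higher in the knockout, and Mfap2, at 0.11, was the 1 that did not pass.

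Related receptors and extracellular binders were mixed, with 4 of 8 genes higher in WT bleomycin (Fmod, Bgn, Aspn and Acvr1), 3 lower, and a median of 0.14. Fmod, fibromodulin, had the largest rise at 2.26, and the genes that fell were Bambi (-1.15), a decoy receptor, Acvrl1 (-0.91) and Eng (-0.82), which act mainly in endothelium. Between the bleomycin groups 0 of the 8 passed the edgeR test, and the extremes were Fmod at -0.81 (edgeR adjusted p = 0.0695) and Bambi at 0.37 (edgeR adjusted p = 0.162). Against Control, Bgn, Fmod and Aspn were higher in the knockout, and Acvrl1, Eng and Bambi lower. Genes of these lists that are named without being the highest, the lowest or called between the genotypes were picked after their values were seen.

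The Smads and their regulators were mixed as well. In WT bleomycin 4 of 14 were higher (Pmepa1, Tgif1, Smurf1 and Skil) and 6 lower, with a median of -0.14. Pmepa1, a TGF-β-induced inhibitor of Smad signalling, rose by 1.75 and Smurf2, a ubiquitin ligase for Smads and receptors, fell by 0.55 on the log2 scale. Smurf1, a related ligase, was the 1 gene called between the bleomycin groups, at 107 ± 5.36 CPM in WT and 88.2 ± 3.85 in CB1R KO libraries (log2 difference -0.28, SE 0.06, edgeR adjusted p = 0.0416). Tgif1, a repressor of Smad-driven transcription, had a larger difference of -0.36 that did not pass (edgeR adjusted p = 0.0805). Against Control, 3 of the 14 were higher in the knockout (Pmepa1, Tgif1 and Skil) and 5 lower (Smad7, Smurf2, Ski, Zfyve9 and Ppm1a).

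Of 15 genes known to respond to TGF-β, 13 rose in WT bleomycin and 1 fell, with a median log2 fold change of 1.37. Timp1, an inhibitor of matrix metalloproteinases, had the largest rise at 4.58, and Nox4, an oxidase of myofibroblasts, was the gene that fell, by 0.71. In CB1R KO against WT bleomycin, 0 were called higher and 3 lower, and 14 of the 15 had a lower mean, with a median of -0.56 against 0.00 over all tested genes. Against Control 7 of the 15 were higher in the knockout and 0 lower. Lists of cell markers went in both directions between the bleomycin groups. The mean was lower in CB1R KO than in WT bleomycin for 5 of 5 fibroblast and 5 of 5 macrophage markers. It was also lower for 4 of 4 smooth muscle and 4 of 4 mesothelial markers. Of these, edgeR called 1, the smooth muscle actin Actg2 (log2 difference -0.80, adjusted p = 0.0231). The mean was higher for 5 of 5 markers each of type I cells, type II cells, endothelial cells and cardiac muscle. It was also higher for 4 of 4 tested markers each of adipocytes and of T and NK cells. Among these, edgeR called 3 type II markers and 1 marker of T and NK cells. The summed CPM of the smooth muscle markers was 302 to 429 in WT bleomycin and 289.8 to 431 in CB1R KO bleomycin, and that of the macrophage markers 835 to 1024 and 710.5 to 962. Their part in the results of the responding genes was not tested.

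The 3 genes called lower were Timp1, Lox and Tagln. Timp1 was at 5.18 ± 3.07 CPM in Control, 125 ± 19.9 in WT bleomycin and 45.3 ± 21.4 in CB1R KO bleomycin, a log2 difference of -1.46 (SE 0.29, edgeR adjusted p = 0.0314). Its libraries did not overlap between the bleomycin groups.

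Lox, which crosslinks collagen and elastin, was at 69.8 ± 3.35, 371 ± 54.7 and 206 ± 74.4 CPM in the same groups, a log2 difference of -0.85 (SE 0.18, edgeR adjusted p = 0.0396). Tagln, a contractile protein of smooth muscle and myofibroblasts, was at 157 ± 16.4, 274 ± 35.8 and 176 ± 13.8 CPM, a log2 difference of -0.63 (SE 0.10, edgeR adjusted p = 0.0177). Tagln in the knockout did not pass against Control (log2 difference 0.16, edgeR adjusted p = 0.224). Lox overlapped between the bleomycin groups and Tagln did not. The number of genes called between the bleomycin groups depended on single libraries, from 1 of 15315 without CB1R KO mouse 9 to 653 without CB1R KO mouse 10.

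**Figure D5:**
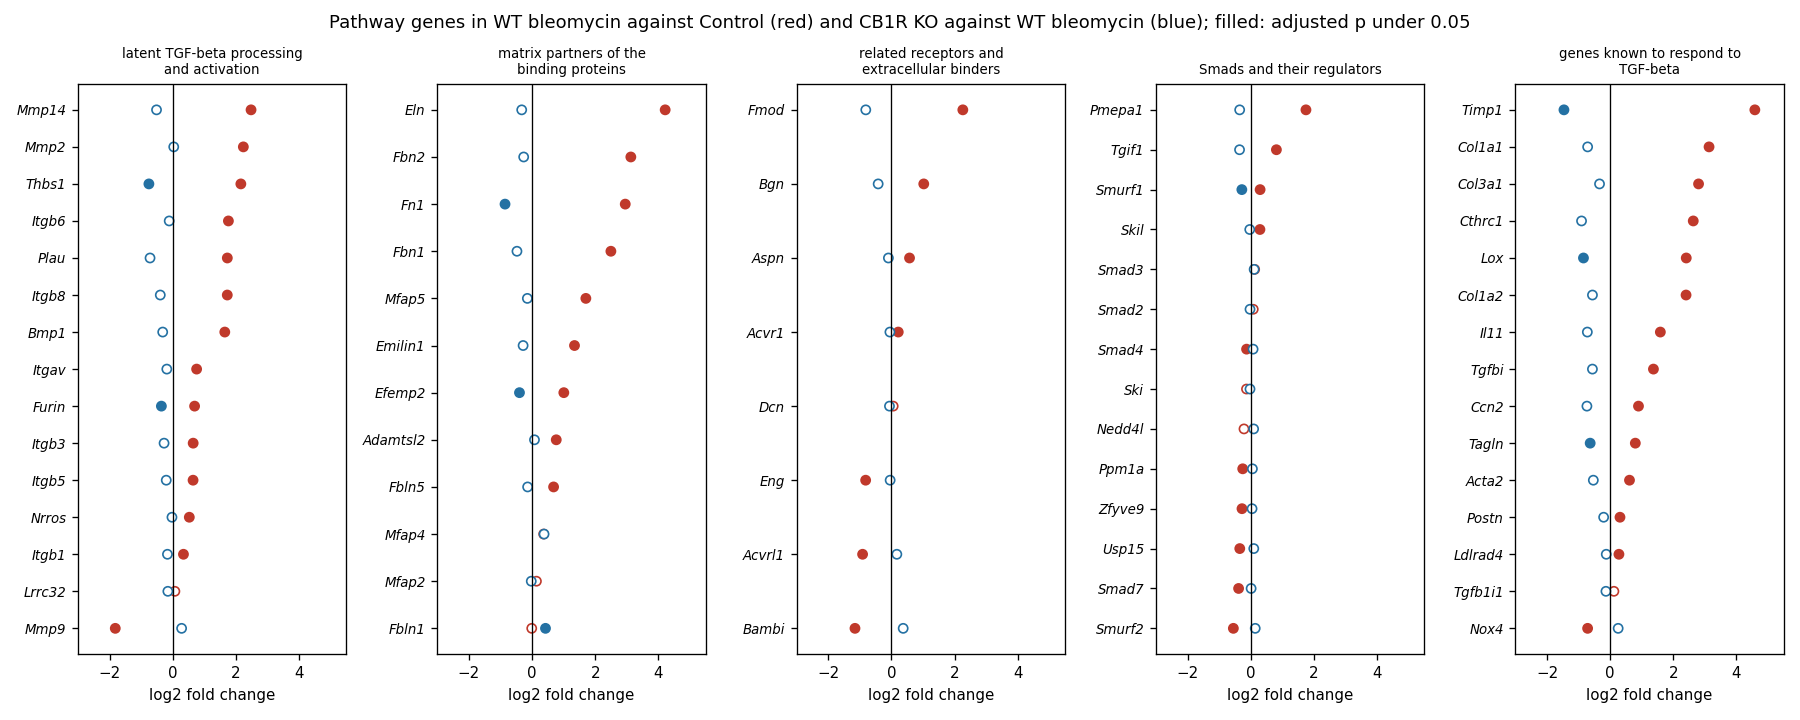
Log2 fold change (horizontal axis) of each gene of the 5 pathway lists in WT bleomycin against Control (red) and CB1R KO against WT bleomycin (blue), filled where the edgeR adjusted p was under 0.05. Red points reach 4.58 for Timp1, and 14 of the 15 blue points of the genes that respond to TGF-β lie left of 0.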

How the data were processed

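Lung RNA of 13 mice was sequenced as paired-end reads from libraries made with a kit that does not mark strand. Per the labels and the study's methods, the authors quantified reads with Kallisto on the Ensembl mouse reference (GRCm39 per the labels) and summed protein-coding transcripts per gene. The deposited values are estimated counts, of which 64.8% were not whole (tolerance 0.001), and TPM. The deposited TPM table also had 1 column that matched no sample and was not used.

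Estimated counts were rounded, genes were filtered by filterByExpr, and all 13 libraries were fitted as 3 groups with TMM normalization in edgeR 4.0.16 (R 4.3.3; quasi-likelihood test, Benjamini-Hochberg adjustment over 15315 genes, threshold 0.05). Each library was taken as 1 mouse and 1 replicate, grouped by its treatment label. Standard errors were derived from that fit, as the size of the log2 fold change over the square root of the F statistic of the quasi-likelihood test. The 95% intervals were built from these standard errors with a t quantile. CPM of single genes are rounded estimated counts scaled to the library's total over the tested genes, adjusted by TMM. Summed CPM of marker lists are estimated counts scaled to the plain library total, without TMM. Log2 CPM used a prior count of 2. TPM were described per library and compared between genes. DESeq2 1.42.0 and limma 3.58.1 on log2(TPM + 1) or log2(TPM + 0.1) were alternatives, and figures used matplotlib 3.10.9. The edgeR steps were tested on simulated data. Counting error and the number of mice limit precision, as the median standard error over all genes on the log2 scale was 0.11 for WT bleomycin against Control and for CB1R KO against WT bleomycin, and 0.12 for CB1R KO bleomycin against Control.

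Named genes were the 10 genes, the extremes of each pathway list in each comparison, listed genes called between the genotypes, and the 3 genes most like each of the 10. Other genes of the lists that the text names were chosen after their values were seen. The genes and lists were chosen with earlier results of these data known. Promoter windows came from RefSeq on GRCm38.p6 and exon overlaps from GENCODE vM21, and no coordinates of the authors' build were used. Of the pathway lists, 1 gene is not reported here and was left out of its list and counts.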

Additional observations from a re-analysis of the deposited data

Results flagged for a closer look

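In each of the 30 sets of 1 gene in 1 group, the highest and the lowest library were compared with the gap to their nearest neighbour, a check that chance alone trips in about 1 of 20 sets. It marked 3 sets, all in WT bleomycin. Tgfb2 was high in mouse 4-B2 at 85.48 CPM, where the gap to the next library was 0.83 of the group's range. Tgfbr2 was low in mouse 4 at 624.0 CPM, with a gap of 0.766 of the range. Ltbp2 was low in mouse 4 at 547.1 CPM, with a gap of 0.74 of the range. Each of these libraries was still above all Control libraries for its gene. What sets the libraries apart was not tested.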

How the results depend on the processing

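In WT bleomycin against Control and in CB1R KO bleomycin against Control, each of the 10 genes kept its direction and its side of the threshold under all 26 alternatives, of which 13 leave out 1 library each. The comparison of the genotypes was less settled. With 150 of all tested genes called, the count was 644 with DESeq2 on all 13 libraries and 644 on the 2 groups, 93 with limma on log2(TPM + 0.1), 25 with limma without a filter, 88 with edgeR on the 2 groups, 41 with the letter case of the mouse labels as a term, 6 with lower-case labels only, and 1 to 653 when 1 library was left out. The 0 calls among the 10 genes became 1 with DESeq2 on all libraries (Ltbp2), 1 with DESeq2 on the 2 groups (Tgfb1) and 0 to 2 when 1 library was left out (Tgfb1 and Ltbp4 without CB1R KO mouse 10). Tgfbr1, at 0.02, ranged from -0.0093 to 0.0472 when 1 library was left out, and it turned to -0.0065 without WT bleomycin mouse 5, to -0.0091 without CB1R KO mouse 10 and to -0.0093 without mouse 11. The cause was not tested.

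No paired analysis was possible because the groups share no mouse numbers. What the letter case or the suffix B2 of the labels stands for is not given in the sources used here. The label-case term left the log2 difference of Ltbp2 between the genotypes at -0.50, that of Tgfb1 at -0.34 and that of Ltbp4 at 0.32, and with lower-case labels only, which all CB1R KO mice carry, they were -0.44, -0.29 and 0.35. Thinning CB1R KO mouse 11 to the depth of the others left them at -0.49, -0.29 and 0.27. With 4 and 5 mice, the standard errors of the genotype differences ran from 0.07 for Tgfbr1 to 0.16 for Ltbp2, and even differences of -0.30 for Tgfb1 and -0.49 for Ltbp2 did not pass the edgeR test.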
